A study of Mus musculus with 33 samples.

Results

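Embryonic stem (ES) cells carrying a deletion at *Nanog* were compared with wild-type cells on day 4 of embryoid body (EB) differentiation, by the 9 RNA-seq libraries of that day among the 33 of the series. The rule takes every library labelled day 4. 3 libraries came from E14Tg2a, a wild-type mouse ES cell line of strain 129/Ola, and 3 each from ΔK9.1 and ΔK9.2, which are E14Tg2a derivatives. In both derivatives CRISPR was used to remove, from both alleles, the stretch between the *Nanog* enhancer and its promoter where histone H3 carries lysine 9 trimethylation (H3K9me3), a mark of silenced chromatin. Each derivative is 1 clone with a normal karyotype, so a feature of a clone and an effect of the deletion cannot be told apart within 1 line. All 3 lines were grown on gelatine in DMEM with fetal calf serum and LIF, the cytokine that sustains self-renewal, and were differentiated as floating aggregates in the same medium without LIF. The methods describe 3 independent assays in which the lines were differentiated side by side. The replicate numbers are read here as these assays, which the labels do not state. The comparison asks which genes and lineages differed between the clones and E14Tg2a at this early stage.

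Levels are in TPM, the share of each transcript among all transcripts of a library, corrected for gene length, so the depth of a library is unknown from them. The listed genes of a day 4 library summed to between 995235 and 997298 TPM. Differences were tested on log2(TPM + 1) by limma in 1 fit to all 33 libraries, with p-values adjusted by the Benjamini-Hochberg method over 16336 genes. A gene was called lower or higher in the clones when its adjusted p was under 0.05 and its log2 fold change, the mean of both clones minus E14Tg2a, was below -1 or above 1. This scale understates the change of genes with few TPM. The p-values measure the spread between the assays of these lines, as 1 spread per gene pooled over the libraries of all days. The error of a day 4 test is therefore set in part by other days. It is understated for a gene whose spread was wider on day 4 than on the other days. The summed level of 7 ES cell markers lay between 4123 and 5726 TPM in E14Tg2a, between 4854 and 6144 TPM in ΔK9.1 and between 4036 and 7219 TPM in ΔK9.2, which shows ES cell transcripts in every library and does not tell how far the cells had differentiated. The deleted stretch is not part of a transcript in the table, which therefore gives no direct check of the genotype.

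Extra-embryonic endoderm is the first lineage that forms at the surface of an EB. Its precursor, the primitive endoderm, is set up by the transcription factors GATA6, GATA4 and SOX17 and gives rise to visceral endoderm, which takes up maternal nutrients through the receptors cubilin and amnionless and secretes apolipoproteins and transport proteins, and to parietal endoderm, which lays down a thick basement membrane of collagen IV and laminin. NANOG is a transcription factor of the naive epiblast that represses GATA6 and with it this lineage.

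In the clones 116 genes were lower on day 4 (0.71% of the genes tested) and 14 were higher (0.0857%). The median log2 fold change was -1.48 over the lower genes, 1.17 over the higher genes and -0.06 over all genes. 4 lists of extra-embryonic endoderm genes, with 70 genes between them, held 28 of the lower genes and none of the higher genes. This is 40.0% of the endoderm genes, and 64 of the 70 had a negative value, as had 10243 of all 16336 genes. 114 of the 116 lower genes were below the E14Tg2a library of the same assay in all 6 clone libraries, as were 2684 of all genes (16.4%). All 14 higher genes were above it in all 6, against 6.41% of all genes. Only 35 of the lower genes had clone and E14Tg2a libraries that did not overlap at all (5.95% of all genes), and 9 of the higher genes (1.63%).

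The assays differed in the level of the endoderm genes. E14Tg2a replicate 1 was the highest of its 3 libraries for 96 of the 116 lower genes (40.1% of all genes) and E14Tg2a replicate 2 the lowest for 93 (26.1% of all genes). The median log2 fold change of the 116 genes was -1.85 in assay 1, -1.04 in assay 2 and -1.71 in assay 3. With the assay number as a block, 160 genes were lower (0.979%) and 19 higher (0.116%). With the 9 libraries of day 4 alone 9 genes were lower and 3 higher, and 0 of the 70 endoderm genes were called by limma, with 46 of them at an unadjusted p under 0.05. With these 9 libraries and the block, 43 were lower and 6 higher, with 16 of the 70. Fits to day 4 alone take their error from that day and hold fewer libraries, and the cause of the lost calls was not tested. The mean log2(TPM + 1) of the 70 genes in E14Tg2a ran from 3.27 to 4.98 on day 4. It ran from 2.33 to 3.49 on day 0 and from 4.40 to 4.62 on day 8. Without E14Tg2a replicate 3 there were 35 lower and 3 higher genes, and without ΔK9.2 replicate 2 there were 75 and 9. The higher genes numbered 44 without E14Tg2a replicate 1, 9 without E14Tg2a replicate 2 and 22 without ΔK9.2 replicate 3. The endoderm calls fell from 28 to 7 without E14Tg2a replicate 1 and also to 7 without E14Tg2a replicate 3, and they numbered 36 without E14Tg2a replicate 2. Without assay 1 in all 3 lines, an alternative chosen after its high endoderm levels were seen, they numbered 21.

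**Figure D1:**
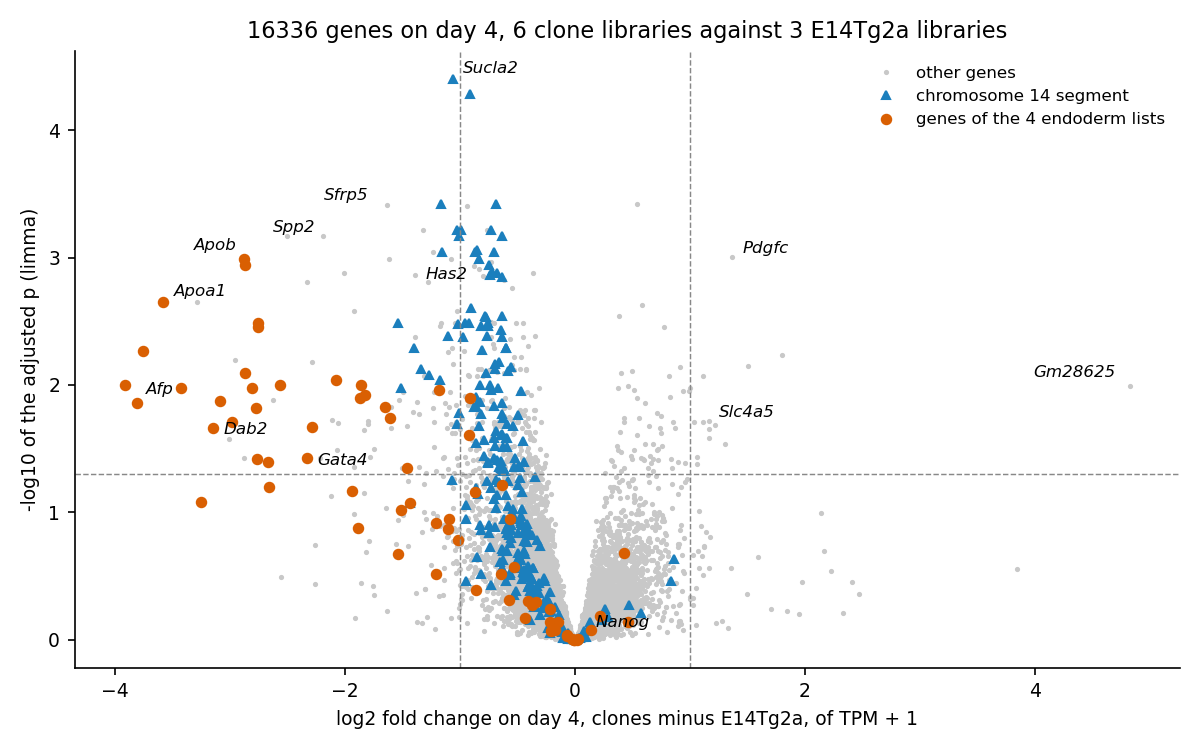
Each point is 1 of 16336 genes, placed by its log2 fold change of TPM + 1 on day 4 (clones minus E14Tg2a, horizontal axis) and by -log10 of its limma adjusted p (vertical axis), with dashed lines at the thresholds. Genes of the 4 endoderm lists (orange) reach to a log2 fold change of -3.92 on the lower side, genes of a chromosome 14 segment (blue) form a narrower column below 0, and Gm28625 stands alone on the higher side at 4.83.

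Of 18 regulators of primitive and visceral endoderm, 6 were lower in the clones and 0 higher, with a median log2 fold change of -1.44. *Dab2*, an endocytic adaptor that marks the lineage from its first appearance, was at 208, 29.7 and 129 TPM in E14Tg2a replicates 1, 2 and 3, at 9.29, 2.72 and 2.14 TPM in ΔK9.1 and at 80.1, 11.3 and 11.1 TPM in ΔK9.2. Every clone library was below the E14Tg2a library of its own assay, but ΔK9.2 replicate 1 was above E14Tg2a replicate 2, so the groups overlap. The log2 fold change of *Dab2* was -3.15 (SE 0.76, limma adjusted p = 0.0217). In bulk RNA, fewer endoderm cells and less of a transcript in each cell cannot be told apart, here or below.

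*Gata4*, a zinc finger factor that turns on visceral endoderm genes, was at 22.4, 3.60 and 11.3 TPM in E14Tg2a, 1.13, 0.541 and 0.668 TPM in ΔK9.1 and 6.30, 0.703 and 0.593 TPM in ΔK9.2. *Sox17*, an HMG box factor of the same network, was at 23.3, 3.66 and 14.6 TPM in E14Tg2a, 1.02, 0.0433 and 0.0876 TPM in ΔK9.1 and 7.56, 0.465 and 0.647 TPM in ΔK9.2. In both genes 5 of the 6 clone libraries were below all of E14Tg2a, and the exception was again ΔK9.2 replicate 1. The log2 fold changes were -2.33 for *Gata4* (SE 0.62, limma adjusted p = 0.0377) and -2.67 for *Sox17* (SE 0.72, limma adjusted p = 0.0405). *Gata4* lies in the chromosome 14 segment described below, where most genes were lower in the clones. *Hnf4a*, a nuclear receptor required for the secretory function of visceral endoderm, averaged 8.14 ± 5.32 TPM in E14Tg2a (SD, n = 3) and 1.58 ± 1.84 TPM in the clones (SD, n = 6). Its log2 fold change was -1.87 (SE 0.41, limma adjusted p = 0.0127).

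*Cer1*, a secreted inhibitor of NODAL, BMP and WNT made by the anterior visceral endoderm, was the one of the 6 lower regulators whose groups did not overlap, at 5.83, 2.26 and 2.46 TPM in E14Tg2a and at most 1.46 TPM in the clones. Its log2 fold change was -1.61 (SE 0.38, limma adjusted p = 0.0183). 4 further regulators, named after their values were seen, passed the adjusted p with the assay block only. *Gata6* had a log2 fold change of -1.89 (limma adjusted p = 0.133, with the block 0.0128), and *Pdgfra*, the receptor that primitive endoderm cells carry, one of -1.94 (limma adjusted p = 0.0676, with the block 0.0132). *Foxa2*, a forkhead factor of all endoderm, had -1.43 (limma adjusted p = 0.0846, with the block 0.0424), and *Sox7*, a relative of *Sox17*, had -1.11 (limma adjusted p = 0.136, with the block 0.00938). With the block 11 of the 18 regulators were lower. Without assay 1 in all lines 2 of the 18 were lower.

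Of 25 genes listed for the secretory function of visceral endoderm, among them *Mttp* and *Tdh*, whose proteins act inside the cell, 19 were in the table, and 11 of these were lower and 0 higher, with a median log2 fold change of -2.57. The median was -2.69 in assay 1, -1.59 in assay 2 and -2.79 in assay 3. *Afp*, alpha-fetoprotein, was at 255, 20.2 and 76.7 TPM in E14Tg2a, 14.4, 0 and 0.975 TPM in ΔK9.1 and 42.5, 2.75 and 3.75 TPM in ΔK9.2. Apart from ΔK9.2 replicate 1, which exceeded E14Tg2a replicate 2, the clones stayed below E14Tg2a. The mean was 117 ± 123 TPM (SD, n = 3) against 10.7 ± 16.4 TPM (SD, n = 6), a log2 fold change of -3.81 (SE 0.85, limma adjusted p = 0.0138).

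*Apoa1*, the main protein of high-density lipoprotein, was at 125, 17.3 and 39.4 TPM in E14Tg2a, 5.78, 0.595 and 0.340 TPM in ΔK9.1 and 23.8, 2.17 and 1.56 TPM in ΔK9.2. *Ttr*, transthyretin, which carries thyroid hormone and retinol, was at 125, 20.6 and 59.0 TPM in E14Tg2a, 7.10, 0.217 and 0.285 TPM in ΔK9.1 and 23.9, 2.33 and 3.10 TPM in ΔK9.2. *Spink1*, a secreted protease inhibitor, was at 145, 22.8 and 103 TPM in E14Tg2a, 5.72, 0.336 and 0 TPM in ΔK9.1 and 54.3, 3.64 and 3.83 TPM in ΔK9.2. All 3 genes had the order of *Dab2*, with E14Tg2a replicate 1 on top and ΔK9.2 replicate 1 the highest clone library and above E14Tg2a replicate 2. Their log2 fold changes were -3.58 (SE 0.63, limma adjusted p = 0.00223) for *Apoa1*, -3.76 (SE 0.74, limma adjusted p = 0.00541) for *Ttr* and -3.92 (SE 0.84, limma adjusted p = 0.0101) for *Spink1*.

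*Apob*, the scaffold of very low-density lipoprotein, averaged 19.1 ± 13.8 TPM in E14Tg2a and 2.16 ± 3.51 TPM in the clones, a ratio of 8.82, with a log2 fold change of -2.88 (SE 0.46, limma adjusted p = 0.00102). The remaining lower genes of the list were *Apoa4* (-2.87), *Apom* (-2.87), *Rbp4* (-2.76), *Apoc2* (-2.57), *Mttp* (-1.86) and *Fgb* (-1.19). *Apoa4*, *Apom* and *Apoc2* are further apolipoproteins, *Rbp4* carries retinol, *Mttp* loads lipid onto *Apob* and *Fgb* is a fibrinogen chain. The other 8 genes of the list were not called. *Apoe*, a lipid carrier that many cells make, was at 1465 ± 647 TPM in E14Tg2a and 1072 ± 168 TPM in the clones (limma adjusted p = 0.536), and *Tdh*, a threonine dehydrogenase of ES cells, was at 59.0 and 79.8 TPM (limma adjusted p = 0.209). *Apoe* and *Tdh* were named after their values were seen. Without assay 1 in all lines 10 of the 19 were lower.

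**Figure D2:**
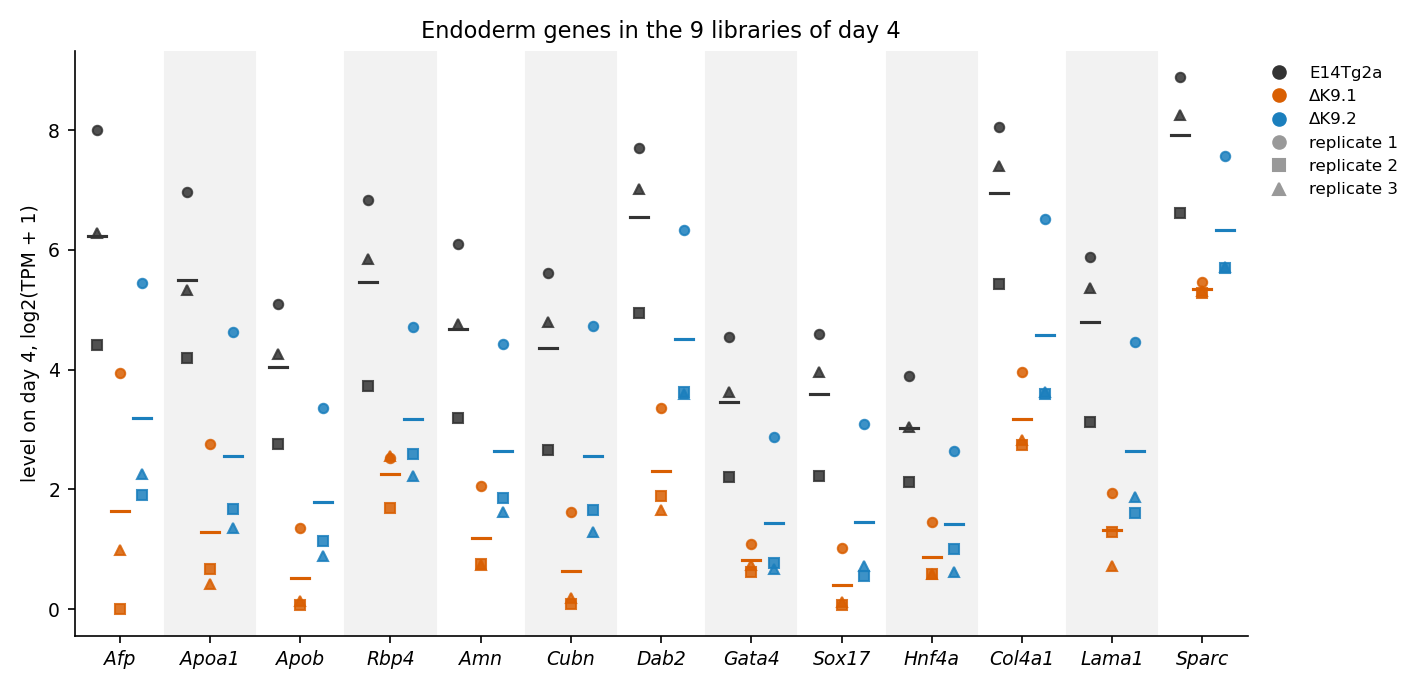
Levels of 13 endoderm genes on day 4 as log2(TPM + 1) (vertical axis), with 1 point per library, colour for the line, symbol for the assay and bars at the mean of each line. In every gene E14Tg2a replicate 1 is the highest point, E14Tg2a replicate 2 lies near or below ΔK9.2 replicate 1, and ΔK9.1 has the lowest mean.

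The promoters of the endoderm genes were read because these genes moved together. RefSeq promoters (GRCm38.p6), searched over the 250 bases before the start, were given for 48 of the 70 endoderm genes as 62 promoters, and for 19 of the 28 lower ones as 22 promoters. The letters AGATAA, a common core of the sites that GATA4 and its relatives bind, were searched on both strands, so that TTATCT counts as a match. They occurred in 1 of the 22 promoters (4.55%), in 6 of the 62 (9.68%) and in 9.99% of all 32851 promoters, shares that are not above that of all promoters. A match describes these letters and is not a site shown to be used. The match among the lower genes, in *Hnf4a*, overlaps an annotated exon and is not printed. Windows of *Foxa2* and of *Lgals2*, a galectin of the secreted list whose log2 fold change was -2.67 (limma adjusted p = 0.0632, with the block 0.00146), are shown as examples chosen after the matches were seen, with the match in capitals. They lie at chr2:148045615-148045674 (- strand, match 183 bases before the start) and chr15:78855587-78855646 (- strand, 90 bases), in this order:
Foxa2: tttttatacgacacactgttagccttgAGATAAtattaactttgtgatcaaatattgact
Lgals2: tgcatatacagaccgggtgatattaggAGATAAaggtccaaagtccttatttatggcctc

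Of 16 genes listed for endocytic and membrane proteins of visceral endoderm, not all of them surface proteins, 7 were lower and 0 higher. *Dab2* was among the 7, and the median log2 fold change of the list was -1.06. *Amn*, amnionless, was at 67.3, 8.14 and 26.2 TPM in E14Tg2a, 3.16, 0.693 and 0.668 TPM in ΔK9.1 and 20.4, 2.64 and 2.07 TPM in ΔK9.2. Its partner *Cubn*, cubilin, was at 47.8, 5.29 and 26.9 TPM in E14Tg2a, 2.08, 0.0650 and 0.131 TPM in ΔK9.1 and 25.4, 2.14 and 1.45 TPM in ΔK9.2. The 2 subunits of this receptor were thus both low in ΔK9.1 and, in ΔK9.2 replicate 1, within the range of E14Tg2a. Their log2 fold changes were -2.77 for *Amn* (SE 0.63, limma adjusted p = 0.0150) and -2.76 for *Cubn* (SE 0.73, limma adjusted p = 0.0382). *Lrp2*, megalin, which works with them, was not called at -1.21 (limma adjusted p = 0.122, with the block 0.00987) and was named after its value was seen. *Ctsh*, a lysosomal protease, was lower by the largest amount of the list, at 104 ± 90.0 TPM in E14Tg2a against 13.3 ± 22.1 TPM in the clones and a log2 fold change of -3.43 (SE 0.74, limma adjusted p = 0.0105). *Clic6*, a chloride channel protein, was lower at -2.76 (SE 0.52, limma adjusted p = 0.00349), as were *S100g* (-2.29), a calcium binder, and *Soat2* (-1.83), which esterifies cholesterol.

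Of 18 genes of parietal endoderm and basement membrane, 5 were lower and 0 higher, with a median of -0.97. *Col4a1*, a collagen IV chain, was at 265, 42.0 and 168 TPM in E14Tg2a, 14.5, 5.65 and 6.09 TPM in ΔK9.1 and 90.6, 11 and 11.3 TPM in ΔK9.2. *Lama1*, the laminin chain of this membrane, was at 58.3, 7.71 and 40.1 TPM in E14Tg2a, 2.83, 1.44 and 0.646 TPM in ΔK9.1 and 21.0, 2.03 and 2.65 TPM in ΔK9.2. *Sparc*, a collagen-binding matrix protein, was at 472, 97.4 and 303 TPM in E14Tg2a, 43.2, 37.9 and 39.0 TPM in ΔK9.1 and 190.2, 50.7 and 51.6 TPM in ΔK9.2. ΔK9.1 was below every E14Tg2a library in all 3 genes, and ΔK9.2 was so in 2 of its 3 libraries. The log2 fold changes were -3.09 for *Col4a1* (SE 0.69, limma adjusted p = 0.0133), -2.81 for *Lama1* (SE 0.61, limma adjusted p = 0.0106) and -2.08 for *Sparc* (SE 0.44, limma adjusted p = 0.00914). *Col4a2*, the other chain of the trimer, fell by 2.99 on the log2 scale, and *Serpinh1*, the collagen chaperone, by 1.65. The general membrane genes *Nid1* (0.02), *Nid2* (0.03), *Hspg2* (-0.07) and *Lama5* (-0.07), named after their values were seen, were not called. With the block the 4 lists had 13, 11, 8 and 8 lower genes, in the order secreted, regulators, endocytic and parietal, and 39 of the 70 together.

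The summed level of 10 primitive and visceral endoderm markers ran from 103 to 801 TPM in E14Tg2a, from 5.94 to 42.0 TPM in ΔK9.1 and from 22.3 to 199 TPM in ΔK9.2. That of 5 parietal endoderm markers ran from 177 to 837, from 65.8 to 88.2 and from 89.9 to 350.2 TPM. That of 4 post-implantation epiblast markers ran from 525 to 641 TPM in E14Tg2a, from 321 to 548 TPM in ΔK9.1 and from 403 to 597 TPM in ΔK9.2. Markers of the remaining cell types were at low levels. The 4 primitive streak markers summed to at most 13.8 TPM in any line, 4 mesoderm markers to at most 7.13 TPM, 3 cardiac markers to at most 3.94 TPM and 4 blood markers to at most 2.78 TPM, with the embryonic globins *Hbb-bh1* and *Hba-x* listed at 0 in every clone library. The 3 neural markers summed to between 16.7 and 37.6 TPM, 4 fibroblast markers to between 8.63 and 25.8 TPM, with *Postn* listed at 0 in the clones, and 1 of 4 trophoblast markers was in the table.

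Further lower genes whose libraries did not overlap lie outside the endoderm lists. *Sfrp5*, a secreted WNT antagonist, was at 5.12, 1.93 and 3.20 TPM in E14Tg2a, 0.359, 0.281 and 0.351 TPM in ΔK9.1 and 0.594, 0.379 and 0.216 TPM in ΔK9.2. No clone library reached the lowest E14Tg2a library, and the ranges of the clones overlap each other. The log2 fold change was -1.64 (SE 0.23, limma adjusted p = 0.000384), and it was one of the few that passed with the libraries of day 4 alone (limma adjusted p = 0.0365). *Spp2*, a secreted phosphoprotein of the liver, was at 12.8, 1.64 and 4.87 TPM in E14Tg2a and between 0 and 1.53 TPM in the clones, with a log2 fold change of -2.19 (SE 0.33, limma adjusted p = 0.000682). In both genes E14Tg2a replicate 1 was the highest and replicate 2 the lowest library of the line, and ΔK9.2 replicate 1 was the highest clone library, the order of the endoderm genes.

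*Has2*, which makes the matrix polymer hyaluronan, was at 9.61, 7.78 and 6.82 TPM in E14Tg2a, 1.98, 2.51 and 1.43 TPM in ΔK9.1 and 3.31, 2.35 and 3.44 TPM in ΔK9.2. *Capn2*, a calcium-dependent protease that cuts adhesion proteins, was at 13.8, 15.2 and 17.2 TPM in E14Tg2a, 4.46, 6.04 and 5.99 TPM in ΔK9.1 and 6.72, 5.16 and 7.80 TPM in ΔK9.2. *Bag2*, a cochaperone, was at 21.9 ± 4.91 TPM in E14Tg2a (SD, n = 3) and 8.22 ± 2.10 TPM in the clones (SD, n = 6). No clone library overlapped E14Tg2a in these genes, and the E14Tg2a libraries lay closer together than in the endoderm genes. The log2 fold changes were -1.39 for *Has2* (SE 0.23, limma adjusted p = 0.00138), -1.24 for *Capn2* (SE 0.19, limma adjusted p = 0.000904) and -1.33 for *Bag2* (SE 0.20, limma adjusted p = 0.000612). *L3mbtl3*, a reader of methylated lysine, had -1.28 (SE 0.22, limma adjusted p = 0.00156). *Capn2* had a negative value on day 0 as well (-0.91, limma adjusted p = 0.00767) and was lower on day 6 (-1.57, limma adjusted p = 0.000282).

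5 of the 12 genes with the largest fall among those without overlap, predicted genes left out, lie in the chromosome 14 segment described below. *Sall2*, a zinc finger factor, was at 12.7, 36.4 and 30.9 TPM in E14Tg2a, 7.63, 11.3 and 5.95 TPM in ΔK9.1 and 3.56, 9.88 and 11.2 TPM in ΔK9.2, and E14Tg2a replicate 1 was here the lowest of its line. Its log2 fold change was -1.54 (SE 0.28, limma adjusted p = 0.00325). The others were *Lcp1*, an actin bundler (-1.51), *Loxl2*, which crosslinks collagen (-1.40), *Rnase4*, a secreted ribonuclease (-1.34), and *Bmp1*, a protease that trims procollagen (-1.27).

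**Figure D3:**
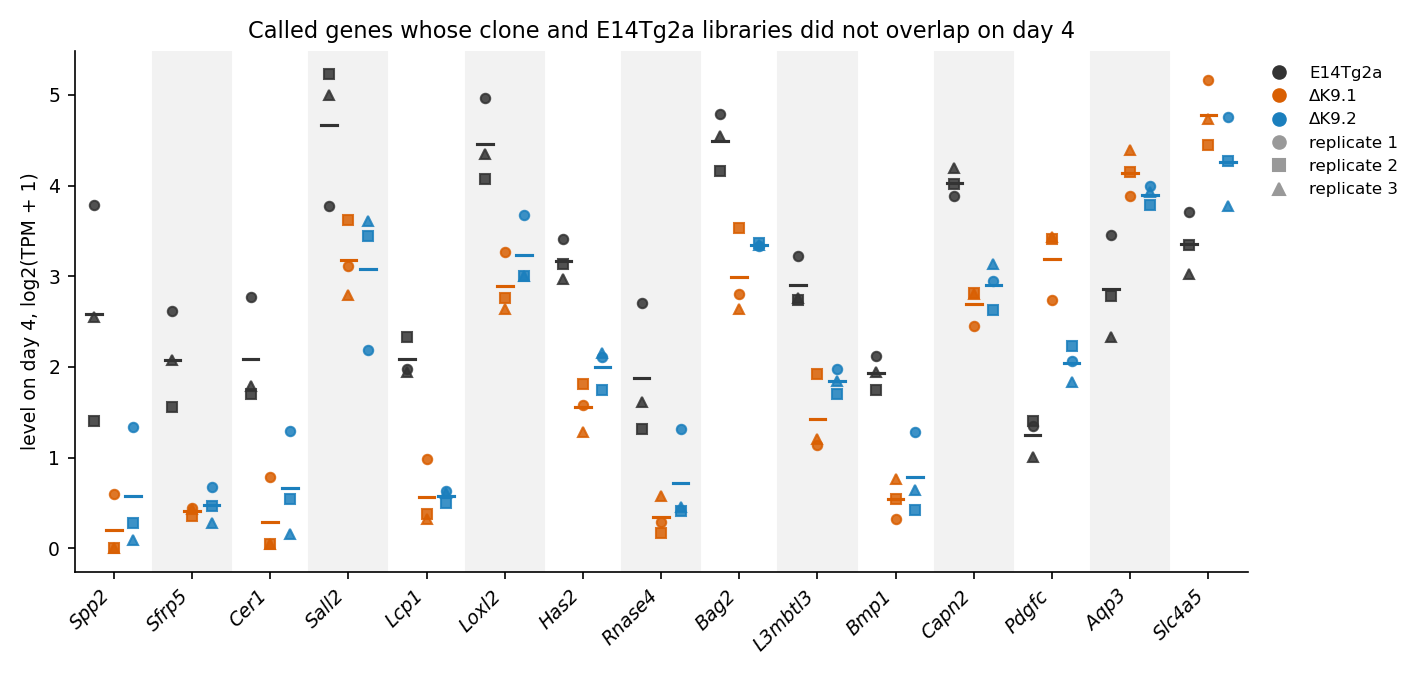
Levels on day 4 of 15 called genes whose clone and E14Tg2a libraries did not overlap, the 12 with the largest fall and the 3 named higher genes, predicted genes left out, as log2(TPM + 1) (vertical axis), with 1 point per library and bars at the mean of each line. The 12 genes from Spp2 to Capn2 lie lower in all 6 clone libraries, and Pdgfc, Aqp3 and Slc4a5 lie higher.

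Of the 116 lower genes 37 belonged to at least 1 of the 34 lists, and the rest were read by eye after their values were seen. Examples are the lysosomal proteases *Lgmn*, at 386, 53.9 and 176 TPM in E14Tg2a and between 27.4 and 151 TPM in the clones (-1.75, limma adjusted p = 0.0319), *Ctsl*, at 848, 262 and 515 TPM against 177 to 356 TPM (-1.22, limma adjusted p = 0.0113) and *Ctsc*, at -2.29 (limma adjusted p = 0.00663). E14Tg2a replicate 1 was the highest library in all 3. *Pga5*, a pepsinogen, fell by 3.29 on the log2 scale (limma adjusted p = 0.00225), *Tmprss2*, a membrane protease, by 2.51 (limma adjusted p = 0.000682), and *Muc13*, a membrane mucin, by 2.01 (limma adjusted p = 0.00133). Signalling genes in this set were *Ihh*, a hedgehog ligand (-1.49, limma adjusted p = 0.0114), *Cited1*, a transcriptional cofactor (-2.96, limma adjusted p = 0.00640), *Amot*, a scaffold of the Hippo pathway (-2.33, limma adjusted p = 0.0387), and *Gpc3*, a glypican (-1.36, limma adjusted p = 0.0168). *Lmna*, which encodes lamin A, was lower at -1.39 (limma adjusted p = 0.00418), and *Jun*, a subunit of AP-1, too (limma adjusted p = 0.0222). *Psme2* and *Psme2b* share sequence, so the split of reads between them is uncertain, and *Gm10680* overlaps *Apoa4*.

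Single members of signalling and adhesion lists were lower, and no gene of any list was called higher. The WNT list had 1 lower gene of 23 (*Sfrp5*) and the primitive streak list 1 of 20 (*Cer1*), with medians of -0.26 and -0.23. The BMP list had 1 of 16, the ligand *Bmp2*, at 2.59, 0.422 and 1.41 TPM in E14Tg2a and at most 0.551 TPM in the clones (-1.02, SE 0.27, limma adjusted p = 0.0375). The FGF and ERK list had 2 of 22, *Klb*, the co-receptor for endocrine FGFs (-1.78, limma adjusted p = 0.0364), and the receptor *Fgfr3* (-1.21, limma adjusted p = 0.0471). The retinoic acid list had 2 of 16, *Rbp4* and *Cyp26a1*, the enzyme that degrades retinoic acid, which was at 72.9, 11.7 and 37.6 TPM in E14Tg2a, 4.55, 3.38 and 1.07 TPM in ΔK9.1 and 22.0, 3.81 and 3.23 TPM in ΔK9.2 (-2.63, SE 0.58, limma adjusted p = 0.0131). *Bmp2*, *Klb*, *Fgfr3* and *Cyp26a1* had their highest level in E14Tg2a replicate 1, like the endoderm genes.

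The list of epithelial-mesenchymal transition and adhesion had 3 lower genes of 30, *Capn2*, *Zyx* and *Sorbs3*, and a median of -0.30. *Zyx*, zyxin, an actin-binding protein of focal adhesions, was at 27.3, 26.5 and 26.4 TPM in E14Tg2a, 9.11, 14.3 and 8.93 TPM in ΔK9.1 and 13.9, 10.7 and 16.9 TPM in ΔK9.2, with no overlap (-1.10, SE 0.25, limma adjusted p = 0.0148). The 3 E14Tg2a libraries were nearly equal, and the clones were at 12.3 ± 3.23 TPM (SD, n = 6). *Sorbs3*, vinexin, an adaptor at the same structures, lies in the chromosome 14 segment and was lower at -1.01 (limma adjusted p = 0.0165). *Vim*, vimentin, was at 30.3 ± 8.20 TPM against 13.9 ± 4.04 TPM without overlap, and was not called at -1.08 (limma adjusted p = 0.0583, with the block 0.0192). With the block 5 of the 30 were lower. The neural list had 1 lower gene of 16, *Fabp7*, a fatty acid binder of neural progenitors, at 1.74, 4.96 and 3.30 TPM in E14Tg2a and at most 1.78 TPM in the clones (-1.41, SE 0.32, limma adjusted p = 0.0163).

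No gene was called by limma in 23 lists of other lineages, states and processes, where 56 of 432 genes had an unadjusted p under 0.05 and 38 of these were lower. With the block 7 of the 432 were lower (*Cdh2*, *H19*, *Igf2*, *Krt8*, *Pdgfra*, *Peg3* and *Vim*) and *Myl3* was higher, and 0 were called with day 4 alone. The medians were 0.26 over 18 genes of naive pluripotency, -0.02 over 14 of core pluripotency and -0.28 over 19 of the formative and primed epiblast. They were -0.33 over 22 genes of simple epithelium, -0.10 over 29 of mesoderm and mesenchyme, -0.07 over 14 cardiac genes and -0.14 over 20 of blood and endothelium. They were 0.16 over 11 genes of surface ectoderm and trophoblast, 0.28 over 9 of primordial germ cells and -0.08 over 10 of the 2-cell-like state. Among pathways and processes they were -0.13 for NODAL, -0.04 for Hox, Cdx and Meis genes, -0.27 for imprinted genes, -0.09 for the DNA and H3K9 methylation machinery, -0.07 for hypoxia and glycolysis and -0.06 for ATF4 targets. The rest were -0.13 for p53 targets, 0.05 for cholesterol synthesis, -0.25 for MHC class I and interferon response, -0.03 for the cell cycle, 0.12 for cytosolic ribosomal proteins and 0.09 for the mitochondrial genome. The 2 genes of each list with the highest level give examples. *Epcam* (0.14) and *Cdh1* (-0.28), which hold epithelial cells together, *Tdgf1* (-0.45) and *Lefty1* (0.33) of the NODAL pathway, and *Pecam1* (0.54) and *Etv2* (-0.59) of endothelium were not called. *Myl3* (1.13) and *Myl7* (0.64), myosin light chains of the heart, were also not called (limma adjusted p of *Myl3* = 0.182, with the block 0.0259).

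**Figure D4:**
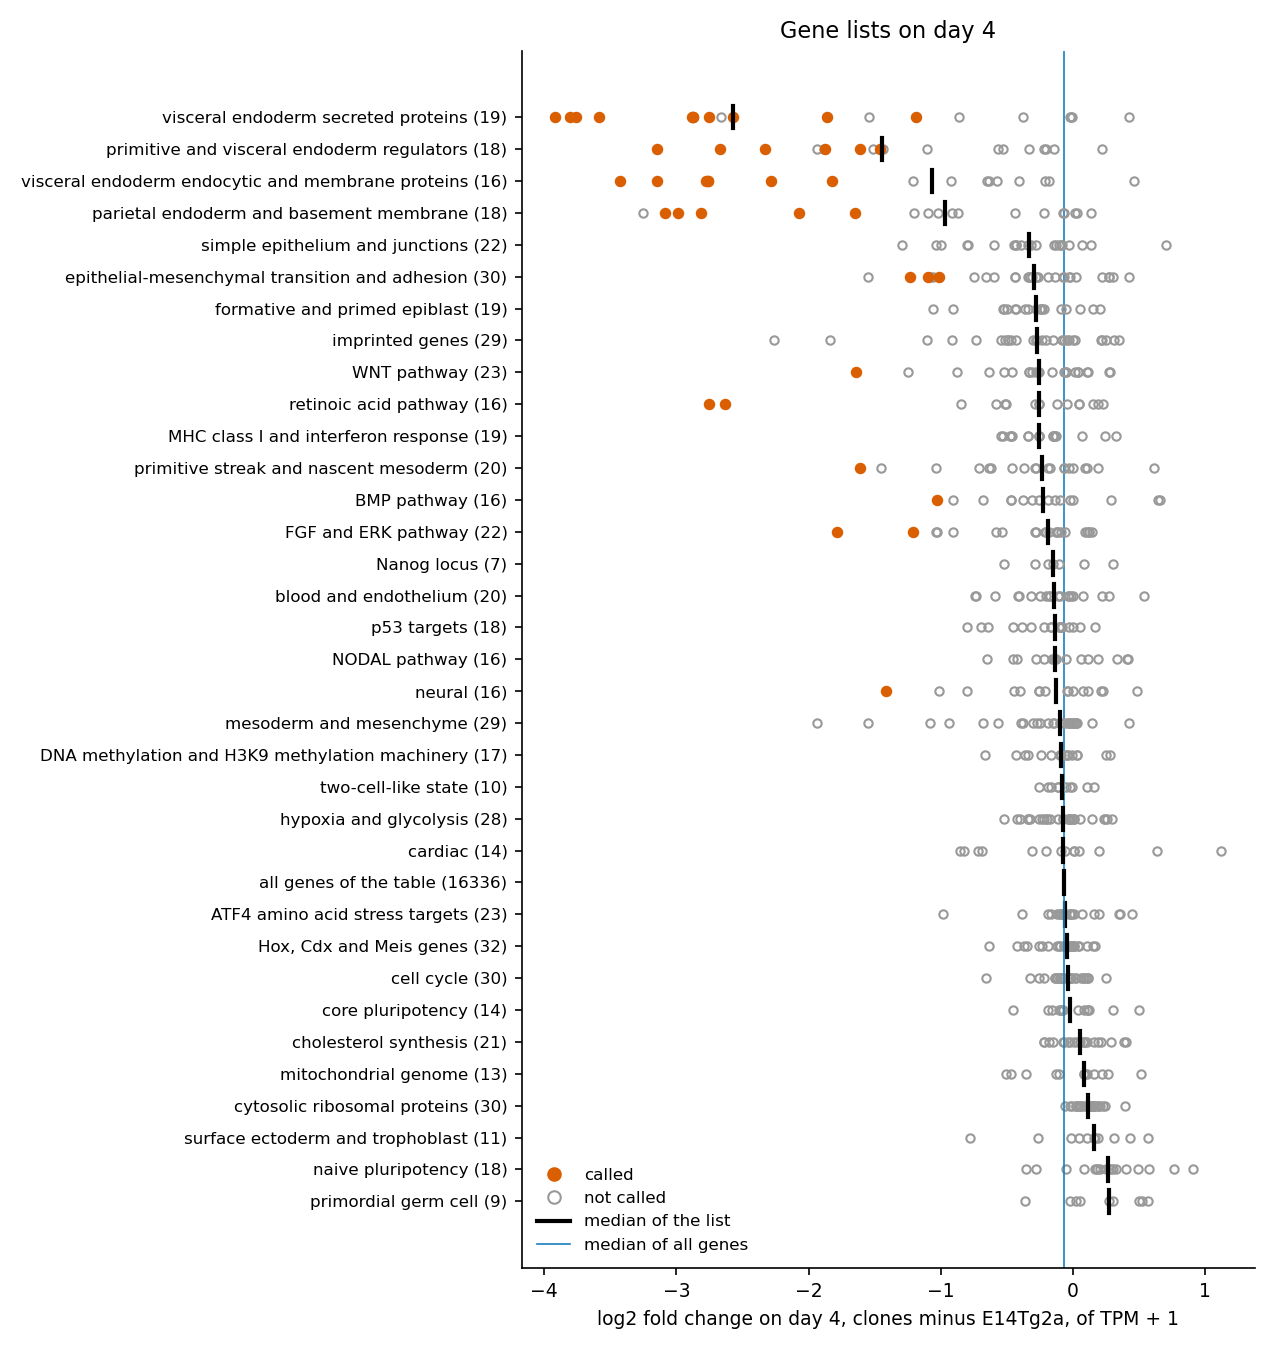
Each row is a gene list with the number of its genes in the table, and each point is 1 gene at its log2 fold change on day 4 (clones minus E14Tg2a, horizontal axis), filled when called. Black bars are the medians, the blue line is the median of all genes at -0.06, and the 4 endoderm lists at the top have medians from -0.97 to -2.57.

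*Nanog* itself was not called on day 4. It was at 183, 207 and 189 TPM in E14Tg2a, 184, 213 and 205 TPM in ΔK9.1 and 208, 234 and 190.3 TPM in ΔK9.2. The mean was 193 ± 12.5 TPM (SD, n = 3) against 206 ± 17.8 TPM (SD, n = 6), a ratio of 1.07, and the ranges overlap. Within assays all 6 clone libraries were above the E14Tg2a library of the same number, with log2 differences of 0.10, 0.11 and 0.06 in assays 1, 2 and 3. The log2 fold change was 0.09 (SE 0.23, limma adjusted p = 0.922, with the block 0.851), and a two-sided exact permutation test of the 9 levels over all 84 arrangements, which takes no account of the assays, gave p = 0.310. The smallest p these arrangements allow is 0.0238. Among its neighbours on chromosome 6, *Slc2a3*, a glucose transporter, was at 945, 774 and 840.2 TPM in E14Tg2a, 593, 497 and 564 TPM in ΔK9.1 and 745, 573 and 608 TPM in ΔK9.2. Its libraries did not overlap, and the log2 fold change was -0.52 (SE 0.16, limma adjusted p = 0.0828, with the block 0.0199, exact permutation p = 0.0238), which is smaller than the threshold of 1. The other neighbours had log2 fold changes of -0.28 (*Apobec1*), -0.10 (*Gdf3*), 0.30 (*Dppa3*), -0.15 (*Foxj2*) and -0.19 (*Necap1*), none of them called.

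Of the genes that mark the naive state, *Esrrb* was at 71.1 ± 17.1 TPM in E14Tg2a and 101 ± 21.5 TPM in the clones (0.49, limma adjusted p = 0.327), and *Zfp42* at 127 ± 26.6 and 173 ± 48.7 TPM (0.40, limma adjusted p = 0.499). *Klf4* had -0.28 and *Prdm14* 0.28, and 3 of the 18 naive genes had a negative value, against 10243 of all 16336 genes. *Pou5f1*, the core factor OCT4, was at 1328 ± 217 TPM in E14Tg2a and 1253 ± 92.7 TPM in the clones (-0.07, limma adjusted p = 0.953), and *Sox2* at 217 ± 40.5 and 269 ± 45.2 TPM (0.31, limma adjusted p = 0.683). Of the formative genes *Fgf5*, the growth factor of the post-implantation epiblast, was at 29.9, 42.6 and 38.0 TPM in E14Tg2a, 22.1, 22.9 and 15 TPM in ΔK9.1 and 15.1, 18.9 and 21.3 TPM in ΔK9.2. Its groups did not overlap and the exact permutation test gave p = 0.0238, while the fit to all 33 libraries did not call it (-0.91, SE 0.57, limma adjusted p = 0.472). The limma adjusted p of *Fgf5* was 0.0770 with the libraries of day 4 alone and 0.0677 with these and the block. *Otx2* (-0.24), *Dnmt3b* (-0.36) and *Wnt3* (-0.46, exact permutation p = 0.0476) were not called. Of the 17 exact tests on genes of the *Nanog* locus, the core factors and the naive and formative markers, 3 were under 0.05 (*Slc2a3*, *Fgf5* and *Wnt3*), before any adjustment.

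The clones gave unequal numbers of calls against the shared E14Tg2a libraries. ΔK9.1 had 151 lower genes (0.924%) and 24 higher (0.147%), and ΔK9.2 had 16 lower (0.0979%) and 3 higher (0.0184%). The test of ΔK9.1 against ΔK9.2 itself called 0 genes by limma (0% of the genes tested), with 833 at an unadjusted p under 0.05, so the difference in numbers is not a difference shown between the clones. With the block these comparisons called 264, 103 and 4 genes. The total for ΔK9.1 was 55 without E14Tg2a replicate 3, 102 without ΔK9.1 replicate 2 and 44 without ΔK9.1 replicate 3. That for ΔK9.2 was 48, 61 and 2 without E14Tg2a replicate 1, 2 and 3, and 38 and 4 without ΔK9.2 replicate 1 and 2. The clones differed by 8 genes without ΔK9.1 replicate 1 and by 1 without ΔK9.2 replicate 1.

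Of the 70 endoderm genes ΔK9.1 had 31 lower and ΔK9.2 had 1, and 62 had a smaller mean in ΔK9.1 than in ΔK9.2. None of these 62 passed the test of ΔK9.1 against ΔK9.2, where the lowest adjusted p of the 70 genes was 0.948 by limma and 6 had an unadjusted p under 0.05. *Ctsh* differed by -2.19 (SE 0.85) and *Cubn* by -1.93 (SE 0.85) on the log2 scale, ΔK9.1 minus ΔK9.2, both at a limma adjusted p of 0.948. ΔK9.2 replicate 1 was above E14Tg2a replicate 2 in 62 of the 70 genes. The mean level of the 70 genes, as log2(TPM + 1), was 4.98, 3.27 and 4.17 in E14Tg2a replicates 1, 2 and 3, 2.80, 2.20 and 2.17 in ΔK9.1 and 3.92, 2.56 and 2.50 in ΔK9.2. In each assay the order was E14Tg2a, ΔK9.2, ΔK9.1, and in each line replicate 1 was the highest.

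The other days of the series, from other libraries, show the same genes before and after. After day 4 the aggregates were plated out thinly on gelatine, so days 6 and 8 also differ from it in culture. The mean level of the 70 genes was 3.49, 2.33 and 2.33 in E14Tg2a on day 0, so that replicate 1 was already high in undifferentiated cells, and between 2.31 and 3.08 in the clones. On day 6, which has replicates 2 and 3 only, it was 3.17 and 3.90 in E14Tg2a and between 2.31 and 2.56 in the clones. On day 8 the E14Tg2a replicates were close together at 4.62, 4.52 and 4.40, and the clones were between 2.70 and 3.33. Of the 70 genes, 0 were lower in the clones on day 0 by limma (0.165% of all genes) and 1, of the endocytic list, was higher (0.220%). On that day 6 of the 70 had an unadjusted p under 0.05. The lower genes numbered 6 on day 6 (1.37%) and 40 on day 8 (3.42%), where 1 was higher. *Col4a1* illustrates a gene lower on day 4 that did not pass on day 8 (-1.90, limma adjusted p = 0.0524), and *Afp* 1 that passed on day 6 (-3.97, limma adjusted p = 0.0303) and day 8 (-4.40, limma adjusted p = 0.000804) as well.

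**Figure D5:**
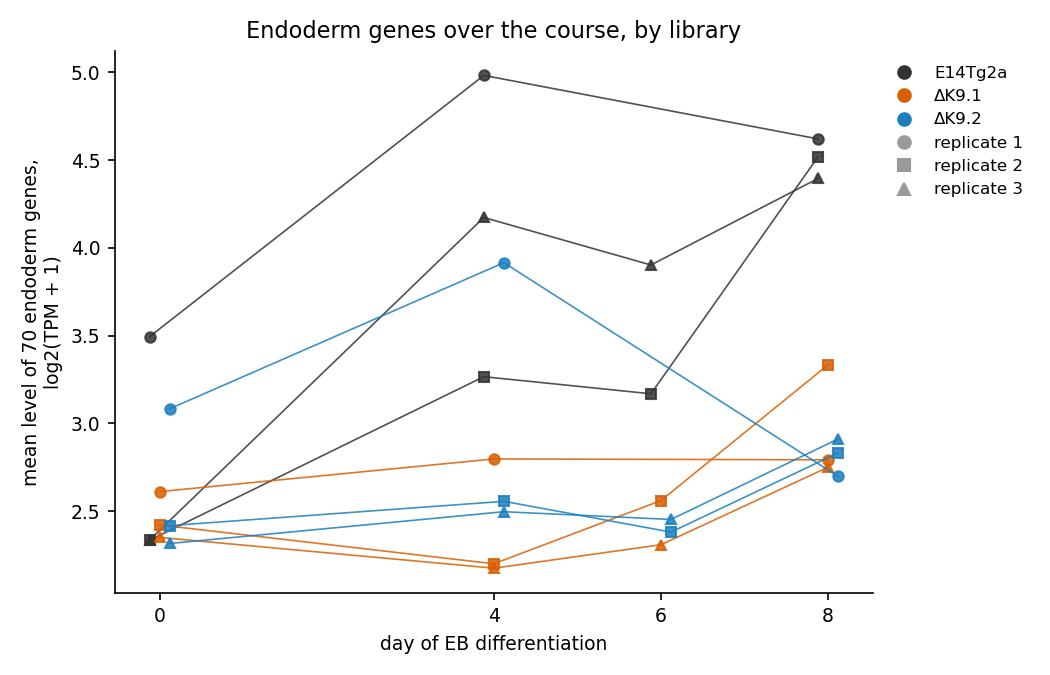
Mean level of the 70 endoderm genes in each of the 33 libraries, as log2(TPM + 1) (vertical axis), against the day of EB differentiation (horizontal axis), with lines joining libraries of the same line and assay number. The E14Tg2a libraries spread from 3.27 to 4.98 on day 4 and draw together between 4.40 and 4.62 on day 8, while the clones are at most 3.33 on day 8.

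Among the 116 lower genes, 3 were lower in the clones on day 0 (0.165% of all genes), 28 on day 6 (1.37%) and 67 on day 8 (3.42%). On at least 1 of these days 76 were, a count given without its share over all genes. The medians of the 116 were -0.27 on day 0, -1.15 on day 6 and -1.26 on day 8. In E14Tg2a itself 49 of the 116 rose from day 0 to day 6 (8.95% of all genes) and 3 fell (8.69%), with a median of 0.98. The test of whether the difference between clones and E14Tg2a changed from day 0 to day 4 called 3 genes (0.0184%), of which *Sfrp5* was one (-1.93, limma adjusted p = 0.0224). With the block it called 47 (0.288%), and of the 70 endoderm genes it called 12 in the direction of a larger deficit on day 4, against 0 without the block by limma (31 at an unadjusted p under 0.05). *Afp* (-3.82) was among these 12, as were *Apoa1*, *Ttr*, *Apob*, *Amn* and *Hnf4a*, and *Tdh* changed in the opposite direction (1.12, limma adjusted p with the block = 0.0339).

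A segment of chromosome 14 from 50 to 80 Mb (mm10) held 16 of the 116 lower genes, among 261 genes placed there. Its bounds were chosen with earlier results of these data known, in which its genes were lower in both clones, so the values below are a description. Of these 261 genes 144 had a mean above 5 TPM on day 4, and their median log2 fold change was -0.63. The clones taken singly had medians of -0.66 (ΔK9.1) and -0.59 (ΔK9.2). 138 of the 144 were lower in both clones (95.8%), against 50.3% of 9537 such genes in the rest of the genome. The rest of chromosome 14 had a median of -0.12 over 178 genes. Measured against the E14Tg2a mean, the segment stood at -0.27, 0.16 and 0.11 in the E14Tg2a libraries, between -0.72 and -0.59 in ΔK9.1 and between -0.63 and -0.51 in ΔK9.2, without overlap. On days 0, 6 and 8 the segment's median was -0.59, -0.88 and -0.74. *Sucla2*, a subunit of succinyl-CoA synthetase in this segment, was at 49.4, 56.8 and 59.3 TPM in E14Tg2a, 23.2, 24.7 and 24.7 TPM in ΔK9.1 and 27.3, 29.4 and 26.1 TPM in ΔK9.2. With a log2 fold change of -1.06 (SE 0.12, limma adjusted p = 3.95e-05) it had the lowest adjusted p of the genes named here. *Itm2b* (-1.16) and *Rcbtb2* (-1.15), named with *Sucla2* after their values were seen, were lower too. *Gata4*, *Sox7*, *Tdh*, *Sorbs3* and the 5 separated genes above lie in this segment, and its part in their values was not tested.

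None of the 14 higher genes belonged to a list. *Pdgfc*, a growth factor of the PDGF family, was at 1.55, 1.64 and 1 TPM in E14Tg2a, 5.69, 9.60 and 9.79 TPM in ΔK9.1 and 3.20, 3.69 and 2.56 TPM in ΔK9.2. No clone library overlapped E14Tg2a, ΔK9.1 was above ΔK9.2, and the log2 fold change was 1.37 (SE 0.22, limma adjusted p = 0.000994). *Slc4a5*, a bicarbonate transporter, was at 12, 9.14 and 7.14 TPM in E14Tg2a, 35, 20.8 and 25.7 TPM in ΔK9.1 and 26.0, 18.2 and 12.7 TPM in ΔK9.2 (1.17, SE 0.28, limma adjusted p = 0.0192). *Aqp3*, a water and glycerol channel, was at 6.62 ± 3.04 TPM in E14Tg2a (SD, n = 3) and 15.4 ± 2.63 TPM in the clones (SD, n = 6), with 1.17 (SE 0.29, limma adjusted p = 0.0259). *Slc4a5* and *Aqp3* were also higher on day 0, at 1.32 (limma adjusted p = 0.00628) and 1.13 (limma adjusted p = 0.0257), and 4 of the 14 were called higher then (0.220% of all genes) and none on day 6 or 8. The lincRNA *Gm28625*, named after its values were seen, was at 0.239, 0.0865 and 8.82 TPM in E14Tg2a and between 49.5 and 110.3 TPM in the clones (4.83, SE 1.03, limma adjusted p = 0.0101). In E14Tg2a it was at 140.6, 85.3 and 9.21 TPM on day 0, at 58.7 and 36.9 TPM on day 6 and listed at 0 in all 3 libraries of day 8. In the clones *Gm28625* was between 23.9 and 128.3 TPM on day 0 and between 25.8 and 121.5 TPM on day 6. On day 8 it was at 11.5 TPM in ΔK9.1 replicate 1, at 69.7 TPM in ΔK9.2 replicate 1 and listed at 0 in the other clone libraries.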

How the data were processed

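RNA was poly-A selected, sequenced with strand kept, aligned and quantified by the authors with STAR and RSEM on mm10 (versions not given in the sources used here), and the deposited table holds TPM per gene and library, which were analysed here. Per the paper's methods the authors kept genes averaging at least 1 TPM in a group and left out libraries that lay apart in a principal component analysis, and day 6 has replicates 2 and 3 only. The deposited log2 fold changes and false discovery rates (q-values) of the authors, made with DESeq2 for comparisons with day 0 and between lines on day 0, were not used. DESeq is also named in the submitters' processing notes.

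TPM keep no library depth, and read counts were not used here. limma 3.58.1 (R 4.3.3) was fitted to log2(TPM + 1) of all 33 libraries with 12 groups of line and day and an intensity trend. Python 3.11.15 (pandas 2.3.3, numpy 2.4.6) and matplotlib 3.10.9 were used for the tables and plots. All tests are two-sided. The fit was also run on simulated libraries, drawn independently with 1 SD per gene for all days and no assay effect. That run cannot tell how the fit behaves where the spread differs between days or assays. Genes were placed by symbol on the mm10 annotation (16078 genes, 98.4%).

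Replicate numbers were taken to pair the samples, because the methods describe 3 assays with the lines differentiated in parallel. The labels do not state this pairing. On day 4 the deviations from the group means of the 9 same-number pairs of libraries correlated at 0.128 to 0.458 (median 0.265), and those of the 18 other pairs at -0.375 to 0.163 (median -0.152). The fit without a block was the main one.

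The comparison, the 34 gene lists and the marker lists were chosen with earlier results of these data known. Named genes were Nanog, its neighbours and 8 naive or formative markers, the genes called with no overlap between groups, up to 12 in each direction without predicted genes, and up to 5 called genes of each list or, in a list without calls, the 2 with the highest level. The remaining lower genes of the endoderm lists, and those so described, were named after their values were seen. Alternatives were a pseudocount of 0.1 TPM, minima of 1 and 5 TPM in a day 4 group, rescaling by the median ratio, the block, day 4 alone, days 0 and 4 alone, no trend and leaving out each library. 1 lower gene of the lists is not reported here.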

Additional observations from a re-analysis of the deposited data

Results flagged for a closer look

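3 genes differed in their response between day 0 and day 4, by the limma test of the day 4 difference minus the day 0 difference of the clones to E14Tg2a. *Sfrp5* had a value of -1.93 on the log2 scale (limma adjusted p = 0.0224, with the block 0.00376). On day 0 it was at 1.27, 1.11 and 1.22 TPM in E14Tg2a, 1.85, 1.65 and 2.68 TPM in ΔK9.1 and 1.25, 1.63 and 1.33 TPM in ΔK9.2, and on day 4 it was higher than this in E14Tg2a and lower in the clones.

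The antisense transcript *Gm11657* had a value of 1.12 (limma adjusted p = 0.0310). It was at 1.82, 1.29 and 2.11 TPM in E14Tg2a on day 0 and at most 0.185 TPM in every library of day 4. *Gm26448*, a small nucleolar RNA, had a value of 5.95 (limma adjusted p = 7.43e-06). It was at 21.4, 34.3 and 24.9 TPM in E14Tg2a on day 0 and listed at 0 in the clones. On day 4 it was listed at 0 in every library except ΔK9.1 replicates 2 and 3, at 7.50 and 14.9 TPM.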

How the results depend on the processing

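The median shift of all genes was -0.06 on the log2 scale and 0.00 after rescaling by the median ratio, which left 99 lower and 21 higher genes. The lower genes were 172, 122 and 89, and the higher genes 24, 14 and 9, with a pseudocount of 0.1 TPM, a minimum of 1 TPM and a minimum of 5 TPM. With day 4 alone 9 genes were lower and 3 higher, and 11, 1 and 1 genes differed for ΔK9.1, ΔK9.2 and between the clones. With day 4 alone and the block these counts were 43, 6, 60, 1 and 1. With the block in all libraries they were 160 and 19, then 264, 103 and 4, and 47 genes changed their difference from day 0. That last count, 3 in the full fit, was 1 with a pseudocount of 0.1 TPM or a minimum of 5 TPM and 5 with days 0 and 4 alone. It could not be fitted with day 4 alone. The genes of E14Tg2a that differed between day 6 and day 0 numbered 2882 and fell to 1475 with a minimum of 5 TPM.

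Leaving out 1 library at a time gave 35 to 172 lower and 3 to 44 higher genes, 44 to 230 for ΔK9.1, 2 to 61 for ΔK9.2, 0 to 8 between the clones, 1 to 42 for the change from day 0 and a chromosome 14 median of -0.78 to -0.53. The change from day 0 was called for 42 genes without E14Tg2a replicate 2, 1 without E14Tg2a replicate 3, 16 without ΔK9.2 replicate 1 and 6 without ΔK9.2 replicate 3. Without E14Tg2a replicate 1, 65.9% of the calls were lower, against 89.2% with all libraries and 75.0% with day 4 alone. Leaving out assay 1 in all lines, chosen after the data were seen, gave 88 lower and 20 higher genes, 5 genes between the clones and 7 for the change from day 0. *Gdf3*, at -0.10, ranged from -0.23 to 0.12 with 1 library left out, changed sign without E14Tg2a replicate 2 and was at -0.27 without assay 1.

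Of the 56 values of named genes tested against the settings, the block changed the side of the adjusted p threshold for *Slc2a3* and changed no other call among these 56. Genes outside the 56, such as *Vim* and *Myl3*, passed with the block only. Of the 56, 41 were called. Of these 41, 36 lost their call with day 4 alone, 18 with day 4 alone and the block, 19 without E14Tg2a replicate 1 and 28 without E14Tg2a replicate 3. These settings hold fewer libraries, and the cause of the changes was not tested.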
